A study of Mus musculus with 24 samples.

Results

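Retinal ganglion cells are the output neurons of the retina, and their axons form the optic nerve. A set of 10 genes that are widely used to mark these cells was followed here through the retinas of 8 inbred mouse strains. The 10 genes were taken by symbol from the 28802 genes of the deposited expression table, and all 10 were present. Each of the 10 also had a mean of at least 0.5 cpm (the reads of a gene scaled to a fixed total of reads in the library), the limit above which 16400 genes were tested.

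The study asked how gene expression in the retina of different genetic backgrounds relates to baseline refraction, susceptibility to form-deprivation myopia and contrast perception. Whole retinas of wild type mice were collected at postnatal day 28, and total RNA was sequenced after removal of ribosomal RNA. There were 24 libraries, 3 from each strain. CAST/EiJ, PWK/PhJ and WSB/EiJ are wild-derived strains. The classical laboratory strains were C57BL/6J, A/J, NZO/HlLtJ, 129S1/Svlmj and NOD/ShiLtJ. The size of 1 read in the table gave between 57607000 and 78149000 reads per library.

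Ganglion cells are a small minority of retinal neurons. They gather signals from bipolar and amacrine cells and fire action potentials along long axons, so they are rich in axonal cytoskeleton and in the machinery for glutamate release. If strains differed in the number of ganglion cells and in nothing else, all of the marker genes would be higher or lower together. The factor would be similar only for genes restricted to these cells. In RNA from whole tissue, fewer cells of a type and less RNA per cell cannot be told apart.

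The markers fall into several roles. Pou4f1, Pou4f2 and Pou4f3 are transcription factors of the POU class that guide the differentiation and survival of ganglion cells. Rbpms is an RNA-binding protein that labels ganglion cells of nearly all types. Sncg is gamma-synuclein, a small protein of axons and cell bodies. Nefl, Nefm and Nefh are the light, medium and heavy subunits of the neurofilament, the main intermediate filament of large axons. Thy1 is a glycoprotein anchored to the surface of neurons, and Slc17a6 is the transporter that loads glutamate into synaptic vesicles. Several of these genes are not restricted to ganglion cells, and neurofilament and Thy1 transcripts in particular are also made by other neurons.

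The genes lie apart in the genome except for Nefl and Nefm. On GRCm38 Pou4f1 lies at chr14:104461676-104467999, Pou4f2 at chr8:78433010-78436645 and Pou4f3 at chr18:42394539-42397249. Rbpms lies at chr8:33782643-33929863 and Sncg at chr14:34370274-34374789. Nefl, at chr14:68083863-68089095, lies inside the span of Nefm at chr14:68082590-68124846, and Nefh lies at chr11:4938754-4948064. Thy1 lies at chr9:44043384-44048579 and Slc17a6 at chr7:51622006-51671119.

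Levels between genes were compared per kilobase of exon in the GENCODE annotation. The methods of the study name RefSeq for the counting, while the deposited table gives the GENCODE span for all 10 members and the RefSeq span for 3 of the 10, so the exon lengths used in the counting are not certain, and close values are not ranked. Nefl was the highest at 37.3 cpm per kb, followed by Sncg at 20.4 and Thy1 at 9.50 cpm per kb. Nefh stood at 7.56, Slc17a6 at 4.09 and Nefm at 3.91 cpm per kb. Rbpms had 0.845 cpm per kb. The transcription factors had similar values, with 0.725 for Pou4f1, 0.655 for Pou4f2 and 0.608 cpm per kb for Pou4f3. The mean of each of the 10 genes was above the 0.0521 cpm that 3 reads were worth in the shallowest library.

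**Figure D1:**
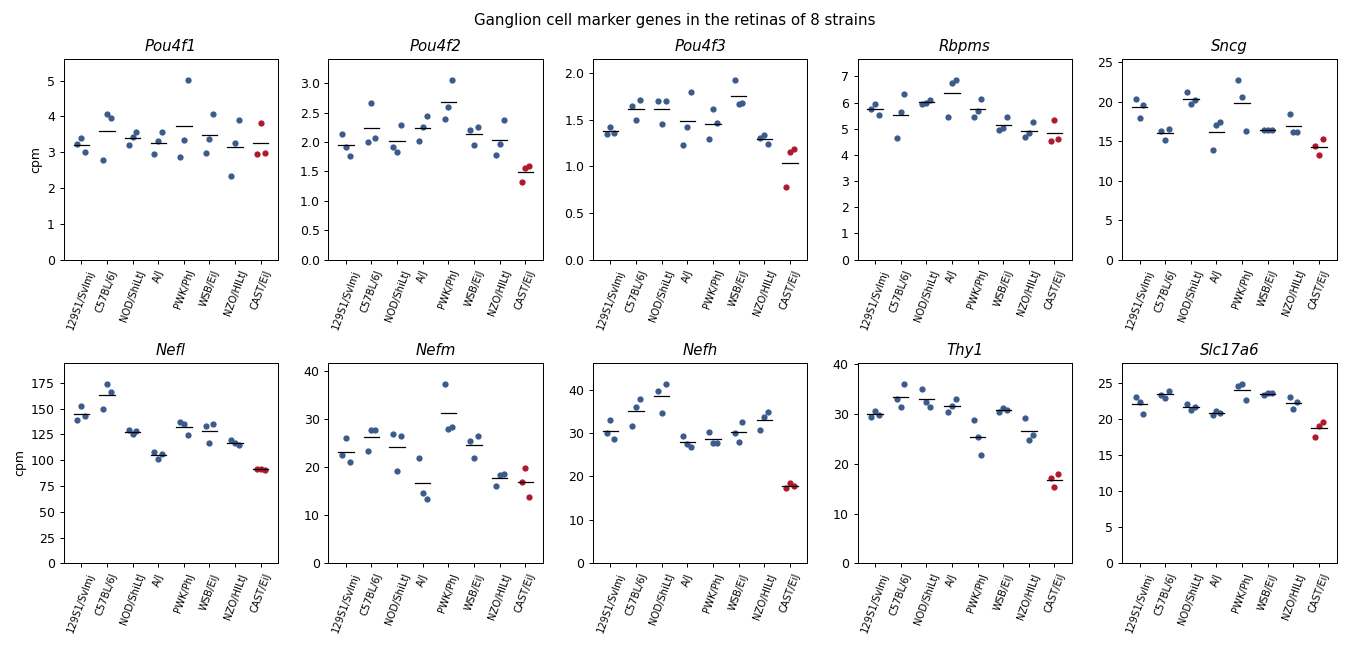
Level of each of the 10 genes in cpm on the y axis in the 3 libraries of each strain on the x axis, with points for libraries and a line for the mean of the strain. CAST/EiJ, in red, had the lowest strain mean for 8 of the 10 genes, and Pou4f1 and Nefm were the exceptions.

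CAST/EiJ was the strain in which the markers stood apart. It had the lowest strain mean for 8 of the 10 genes, against 22.7% of all genes tested, and for 6 of them all 3 of its libraries were below the 21 libraries of the other strains, against 7.36% of all genes. The contrast of CAST/EiJ with the mean of the other 7 strains called 9 of the 10 genes lower (limma, Storey q-value under 0.01), while 29.1% of all genes tested were called lower in that contrast. No member was called higher, against 20.3% of all genes. By the Benjamini-Hochberg adjusted p-value 8 of the 10 were called lower, against 23.9% of all genes, and Rbpms was the gene lost. Under median-ratio scaling 8 were called lower and 0 higher, against 25.8% and 25.1% of all genes. The part of the scaling in the member differences was not tested. The median difference of the 10 genes was -0.33 on the scale of log2(cpm + 1), and that of all genes was -0.03. All 10 differences were below 0. The added 1 makes differences of genes at a few cpm smaller than their fold changes. All strains were aligned to one reference genome, and the part of sequence differences in the CAST/EiJ values was not tested.

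Among the transcription factors, Pou4f2 was at 1.33, 1.55 and 1.59 cpm in the 3 CAST/EiJ libraries. The other 21 libraries ran from 1.77 to 3.05 cpm with a median of 2.15, so the groups did not overlap. The difference was -0.35 ± 0.069 (SE, limma, q = 5.47e-05). Pou4f3 was at 0.781, 1.16 and 1.19 cpm in CAST/EiJ and between 1.23 and 1.93 cpm in the other 21, again with no overlap. The difference of Pou4f3 was -0.30 ± 0.063 (SE, limma, q = 8.71e-05). In reads, the CAST/EiJ values of Pou4f3 rested on 57 to 91 reads per library, with a counting error of 10.5% to 13.2%.

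Pou4f1 was the member not called lower in CAST/EiJ, and whether its difference departs from those of Pou4f2 and Pou4f3 was not tested. Its CAST/EiJ libraries were at 2.95, 2.98 and 3.83 cpm, inside the range of 2.33 to 5.01 cpm of the other libraries. The difference of -0.05 ± 0.111 (SE, limma, q = 0.205) did not pass the threshold. Over the 8 strains the means of Pou4f1 ran only from 3.16 cpm in NZO/HlLtJ to 3.74 cpm in PWK/PhJ, and every neighbouring pair of strains overlapped. Strain held 11.4% of its variance, the lowest share of the 10 genes.

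Rbpms was at 4.55, 4.62 and 5.32 cpm in CAST/EiJ and from 4.65 to 6.85 cpm in the others, so the groups overlapped. Its difference was -0.18 ± 0.064 (SE, limma, q = 0.00522). That call was lost by the Benjamini-Hochberg adjustment, under median-ratio scaling, and without either of 2 CAST/EiJ libraries. Sncg was at 13.2, 14.4 and 15.2 cpm in CAST/EiJ and from 13.9 to 22.7 cpm elsewhere, with a difference of -0.30 ± 0.069 (SE, limma, q = 2.91e-04). Sncg overlapped with 1 A/J library at 13.9 cpm and 1 C57BL/6J library at 15.1 cpm.

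Nefl was at 91.7, 91.3 and 90.1 cpm in the CAST/EiJ libraries, below all other libraries, which ran from 100.8 to 173.7 cpm. Its difference was -0.51 ± 0.042 (SE, limma, q = 2.36e-10). Next in order came A/J at 104.7 and NZO/HlLtJ at 116.7 cpm, without overlap between the 3 strains, while 1 WSB/EiJ library, at 116.9 cpm, lay within the NZO/HlLtJ values. Nefh was at 17.2, 18.4 and 17.8 cpm in CAST/EiJ against 26.7 to 41.3 cpm elsewhere, and its strain mean was 0.557 of the mean of the other strains. The difference of Nefh was -0.80 ± 0.056 (SE, limma, q = 9.15e-12). Nefm was at 17.0, 19.8 and 13.8 cpm in CAST/EiJ and overlapped the other libraries, of which the lowest, from A/J, was at 13.5 cpm. Its difference was -0.43 ± 0.117 (SE, limma, q = 0.00108), and without the CAST/EiJ library of 13.8 cpm it was no longer called.

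Nefl and Nefm lie on opposite strands of chromosome 14, and 1108 exon bases of the pair overlap in GENCODE, 32.8% of the exon length of Nefl. In RefSeq, the annotation that the methods name, Nefm begins at base 68119545 and the spans do not overlap, while the deposited table has the longer span of GENCODE. The libraries were made with a stranded kit, and whether strand was used in the counting is not stated. Reads of the shared bases may have been divided between both genes, which was not tested. No other member shared exon bases with another annotated gene.

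Thy1 was at 17.1, 15.3 and 18.0 cpm in CAST/EiJ and from 21.8 to 36.0 cpm elsewhere, without overlap. Its difference was -0.80 ± 0.059 (SE, limma, q = 2.41e-11), as large as that of Nefh. Slc17a6 was at 17.6, 19.0 and 19.6 cpm in CAST/EiJ and from 20.5 to 24.9 cpm in the others, also without overlap. Its difference was -0.26 ± 0.036 (SE, limma, q = 9.52e-07). The ratio of the CAST/EiJ mean to the mean of the other strains ran from 0.557 for Nefh and Thy1 to 0.954 for Pou4f1, so the lower levels were not of one size.

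**Figure D2:**
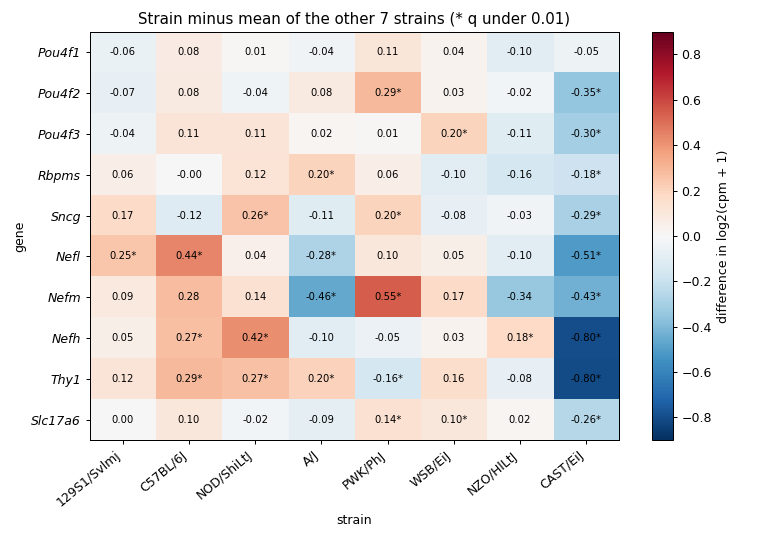
Difference of each strain (x axis) from the mean of the other 7 strains in log2(cpm + 1) for each gene (y axis), with color and number giving the difference and a star marking a q-value under 0.01. In CAST/EiJ 9 of 10 genes are marked as lower, and no other strain has more than 4 genes marked in one direction.

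In the other 7 strains fewer members were called, and calls went both ways in PWK/PhJ and A/J. Of the 10 differences, called or not, 8 were above 0 in C57BL/6J, NOD/ShiLtJ, PWK/PhJ and WSB/EiJ, 7 in 129S1/Svlmj, 4 in A/J and 2 in NZO/HlLtJ, and median-ratio scaling gave 7 in NOD/ShiLtJ and PWK/PhJ. Without CAST/EiJ, chosen after seeing the data, 8 were above 0 in C57BL/6J, 7 in NOD/ShiLtJ and PWK/PhJ and 5 in 129S1/Svlmj and WSB/EiJ. In that setting A/J had 3 above 0 and NZO/HlLtJ had 1. In PWK/PhJ 4 genes were called higher and 1 lower, against 26.6% and 22.8% of all genes. Nefm was at 37.3, 28.0 and 28.3 cpm there, all above the other libraries, with a difference of 0.55 ± 0.117 (SE, limma, q = 1.23e-04). Pou4f2 was at 2.40, 2.59 and 3.05 cpm in PWK/PhJ, with a difference of 0.29 ± 0.069 (SE, limma, q = 3.21e-04). Slc17a6 (difference 0.14) and Sncg (difference 0.20) were also called higher, while Thy1 was called lower with a difference of -0.16. The calls of Thy1 and Sncg in PWK/PhJ were lost by the Benjamini-Hochberg adjustment and without either of 2 PWK/PhJ libraries, and that of Slc17a6 without either of 2. Those of Pou4f2 and Nefm held in each alternative in which the gene was tested, and Pou4f2 does not pass the filter at 5 cpm.

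In C57BL/6J 3 genes were called higher and 0 lower, against 12.5% and 10% of all genes. Nefl was at 149.1, 173.7 and 165.8 cpm, with a difference of 0.44 ± 0.042 (SE, limma, q = 1.17e-08), and Nefh and Thy1 were the others. In NOD/ShiLtJ 3 genes were called higher and 0 lower, against 14.9% and 9.14% of all genes. Nefh was at 39.6, 34.6 and 41.3 cpm there, with a difference of 0.42 ± 0.056 (SE, limma, q = 1.32e-06), and Sncg and Thy1 were also called. Without NOD/ShiLtJ replicate 1 neither Sncg nor Thy1 was called, which left 1 gene, and Sncg was not called without replicate 3.

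A/J was the strain in which the markers split most evenly. Rbpms and Thy1 were called higher there and Nefl and Nefm lower, 2 genes in each direction, against 15.1% and 12.6% of all genes. Nefl was at 107.7, 100.8 and 105.6 cpm, with a difference of -0.28 ± 0.042 (SE, limma, q = 8.07e-06). Thy1 was at 30.4, 31.7 and 33.0 cpm, with a difference of 0.21 ± 0.059 (SE, limma, q = 0.00388). The calls of Rbpms, Thy1 and Nefm in A/J were each lost without either of 2 A/J libraries. That of Rbpms was lost in 15 alternatives, among them the Benjamini-Hochberg adjustment, median-ratio scaling, no filter and the fit without CAST/EiJ. The call of Thy1 was also lost without CAST/EiJ, while that of Nefl was not lost. Without A/J replicate 2 or 3, 0 genes were called higher in A/J and 1 lower.

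In 129S1/Svlmj 1 gene, Nefl, was called higher and 0 lower, against 14.5% and 13.0% of all genes. In WSB/EiJ 2 genes were called higher and 0 lower, against 12.7% and 21.9%, and both, Pou4f3 and Slc17a6, lost the call in several alternatives. In NZO/HlLtJ 1 gene was called higher and 0 lower, against 12.7% and 13.2%. That gene, Nefh, had a difference of 0.18 and lost the call when either of 2 NZO/HlLtJ libraries was left out. Under median-ratio scaling 4 genes were called higher in WSB/EiJ and 2 lower in NZO/HlLtJ, against 16.8% and 13.9% of all genes. That scaling also moved the share of calls of all genes that were higher, from 36.7% to 49.3% in WSB/EiJ and from 62.0% to 51.2% in NOD/ShiLtJ. Each of these 7 contrasts includes CAST/EiJ among the strains of comparison. With CAST/EiJ left out of the fit, an alternative chosen after seeing the data, the genes called higher were 3 in PWK/PhJ, 1 in 129S1/Svlmj, 1 in C57BL/6J and 1 in NOD/ShiLtJ, against 26.1%, 12%, 10.6% and 11.7% of all genes, and 0 in A/J, WSB/EiJ and NZO/HlLtJ, against 12%, 11.4% and 10.6%. The genes called lower in that fit were 4 in A/J, 2 in PWK/PhJ and 3 in NZO/HlLtJ, against 10.7%, 23.7% and 12.2% of all genes, and 0 in the remaining 4 strains.

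At an unadjusted p under 0.05 in the fit of all 8 strains, limma gave 9 members lower in CAST/EiJ, 3 in NZO/HlLtJ, 3 in A/J and 1 in PWK/PhJ, against 33.3%, 21.1%, 19% and 26.3% of all genes. It gave 0 lower in 129S1/Svlmj, C57BL/6J, NOD/ShiLtJ and WSB/EiJ, against 20.5%, 17.7%, 14.5% and 29.7%. Higher at that limit were 5 in C57BL/6J, 5 in PWK/PhJ, 3 in NOD/ShiLtJ and 3 in WSB/EiJ, against 20.1%, 30.8%, 24.6% and 17.2%. There were 2 higher in 129S1/Svlmj, 2 in A/J, 1 in NZO/HlLtJ and 0 in CAST/EiJ, against 21.9%, 23.4%, 19.9% and 23.8%.

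Over the 8 strains together, limma's moderated F-test called 9 of the 10 genes at a q-value under 0.01, against 97.2% of all genes. This call says little about the members. Storey's method estimated that a share of 0.0208 of the genes did not differ among strains, so that genes with an unadjusted p of up to 0.466 fell under the q-value limit. By the Benjamini-Hochberg adjusted p-value 70.6% of all genes were called, and the same 9 members. Pou4f1 had F = 0.367 with an unadjusted p of 0.912 and an adjusted p of 0.914, while its q-value was 0.0190. The largest F of the members was 42.8 for Nefl, followed by 37.9 for Nefh and 32.9 for Thy1.

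The ratio of the highest to the lowest strain mean ran from 1.18 for Pou4f1 to 2.16 for Nefh, with a median of 1.74 over the members and 1.46 over all genes tested. Strain held between 11.4% and 94.7% of the variance of the members, with a median of 72.8%, against 75.5% over all genes. This share is not corrected for the number of strains, so it lies above 0 even where strain has no effect. The highest strain also differed between genes. It was PWK/PhJ for 4 genes, C57BL/6J for 2, NOD/ShiLtJ for 2, and A/J and WSB/EiJ for 1 each.

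Whether the genes moved together over strains was asked by the correlation of the 8 strain means for all 45 pairs of members. All 45 values of Pearson's r were positive, from 0.19 for Rbpms and Slc17a6 to 0.89 for Nefh and Thy1. Their median was 0.573, and the median over all pairs of genes tested was 0.021. A value of 0.573 or more was reached by 10.3% of all pairs of genes. Of the 45 pairs, 10 had an unadjusted p of at most 0.05 in an exact permutation test over all orders of the strains, and 0 after Benjamini-Hochberg adjustment over the 45 pairs. By Spearman's rho there were 4 pairs at an unadjusted p of at most 0.05, and 0 after adjustment.

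Nefh and Thy1 had r = 0.89 (exact permutation p = 0.0196, adjusted p = 0.137) and rho = 0.64 (exact permutation p = 0.0962). Without the 2 strains farthest from the median of Nefh, r was 0.26. Pou4f3 and Thy1 had r = 0.87 (exact permutation p = 0.00945, adjusted p = 0.137) and rho = 0.79 (exact permutation p = 0.0279), and r was 0.71 without the 2 farthest strains. Nefm and Slc17a6 had r = 0.80 (exact permutation p = 0.00990, adjusted p = 0.137) and rho = 0.86 (exact permutation p = 0.0107), and r was 0.65 without the 2 farthest strains. The relation of Nefh to Thy1 rested on the strains left out, and those of Pou4f3 to Thy1 and of Nefm to Slc17a6 did so less.

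Over all 45 pairs the median r was 0.255 when the 2 strains farthest from the median of the first gene were left out. Without CAST/EiJ, an alternative chosen after seeing the data, the median r was 0.179, against 0.022 over all pairs of genes, of which 38.3% reached 0.179 or more, and 33 of 45 values were positive. The range was then from -0.53 for Rbpms and Slc17a6 to 0.84 for Pou4f1 and Nefm. Pou4f2 had r = -0.46 with Thy1 and r = -0.47 with Nefh over the 7 strains, where it had 0.57 and 0.55 over 8. Much of the shared movement therefore rested on CAST/EiJ. The strains also share ancestry to different degrees, so the 8 means are not fully independent points.

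**Figure D3:**
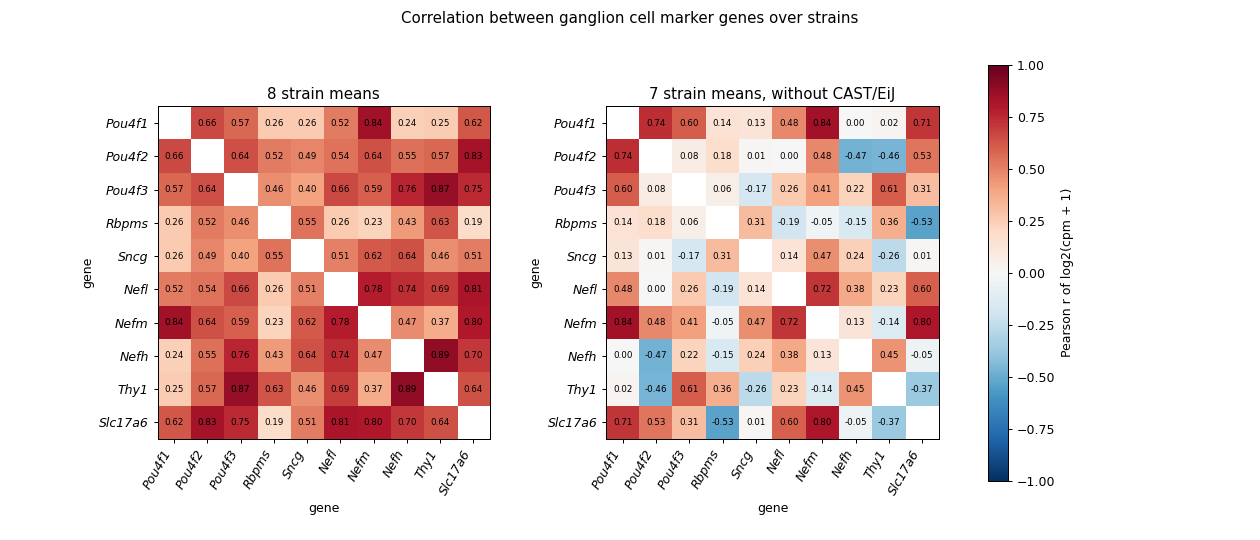
Pearson r between the strain means of each pair of genes (both axes), over 8 strains on the left and over 7 strains without CAST/EiJ on the right, with color and number giving r. All 45 pairs are positive on the left, and 33 of 45 are positive on the right.

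Within strains the markers showed little shared movement. The deviations of the 24 libraries from their strain means had a median r of 0.102 over the 45 pairs, from -0.62 for Pou4f1 and Thy1 to 0.82 for Sncg and Thy1. The median over all pairs of genes was 0.056, and 44.5% of them reached 0.102 or more. Sncg and Thy1, with r = 0.82, and Nefm and Nefh, with r = 0.79, varied together between libraries of the same strain. Pou4f1 was opposed to Sncg (r = -0.59) and Thy1 (r = -0.62), and varied with Pou4f2 (r = 0.71) and Rbpms (r = 0.77). The values of all genes in a library share its depth and its scaling, and no p is given for these correlations.

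Other genes known from ganglion cells were read in the same way. Of the 34 further genes, 32 were tested, and CAST/EiJ had 17 called lower and 1 called higher, with a median difference of -0.18. The shares over all genes were 29.1% lower and 20.3% higher in that contrast. Rbpms2, a relative of Rbpms, was lowest in CAST/EiJ at 2.19 ± 0.0764 cpm (SD, n = 3) and highest in NOD/ShiLtJ at 4.28 ± 0.178 cpm (SD, n = 3). Its difference in CAST/EiJ was -0.46 ± 0.050 (SE, limma, q = 1.56e-08). Jam2, a junctional adhesion molecule that marks one type of ganglion cell but is also made by other cells, was the most abundant of the list. Jam2 was the gene called higher in CAST/EiJ, with a difference of 0.20, and it was lowest in PWK/PhJ at 27.2 cpm.

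The average pattern of the members over strains had a median r of 0.313 with the 32 further genes, and 10 of the 32 (31.2%) were above 0.5. Over the 16390 other genes tested the median was 0.094 and 18.3% were above 0.5. Among the other lists the median r was 0.475 for cone genes, with 3 of 8 above 0.5, and 0.452 for the pigment epithelium, with 3 of 6. It was 0.287 for Müller glia (2 of 8), 0.232 for microglia and blood (2 of 8), 0.210 for optic nerve myelin and astrocytes (1 of 6) and 0.190 for horizontal cells (0 of 5). Amacrine, bipolar and rod genes had 0.016 (1 of 10), -0.003 (0 of 8) and -0.129 (0 of 8). Lens genes had the highest median r of the lists, 0.514 (6 of 9). Single libraries set the strain means of the lens genes and, in NOD/ShiLtJ and NZO/HlLtJ, much of those of the myelin and astrocyte list, so the values of these 2 lists are given without a reading. The 5 genes outside the members with the highest r were Lpl (0.970), Acot7 (0.967), Nans (0.962), Cgnl1 (0.961) and Zfp667 (0.953), each over 8 strain means. Lpl, lipoprotein lipase, was at 1.08 cpm in CAST/EiJ and at 5.29 cpm in PWK/PhJ, its highest strain. Acot7, an enzyme that cleaves fatty acyl-CoA, was at 11.9 cpm in CAST/EiJ and at 18.3 cpm in NOD/ShiLtJ.

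Markers of other cell types were also lower in CAST/EiJ in part, where 29.1% of all genes were called lower and 20.3% higher, and some of the counts lie near those shares. Of 8 cone genes 5 were called lower and 2 higher, and Opn1sw, the short-wave cone opsin, was at 60.2 cpm there and at 146.4 cpm in WSB/EiJ. Of 8 bipolar genes 5 were lower and 3 higher, and Trpm1, a cation channel of ON bipolar cells, had a difference of -0.42. Of 8 Müller glia genes 4 were lower and 2 higher, and Glul, glutamine synthetase, had a difference of -0.23. Of 10 amacrine genes 1 was lower and 2 higher, and of 5 horizontal cell genes tested 1 was lower. Of 8 rod genes 0 were called lower and 3 higher in CAST/EiJ, and the rod genes had a median difference of 0.11. The part of these cell types in the lower ganglion cell markers was not tested.

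The genes with the largest F or the highest level in these lists had their lowest means in several different strains. Prkca, a kinase of rod bipolar cells, was lowest in A/J at 57.3 cpm and highest in WSB/EiJ at 188.8 cpm, and Cabp5, a calcium-binding protein of bipolar cells, was lowest in C57BL/6J at 24.5 cpm and highest in PWK/PhJ at 68.2 cpm. The rod arrestin gene Sag was lowest in C57BL/6J at 916.8 cpm and highest in NOD/ShiLtJ at 2210 cpm. Pde6a, a subunit of the rod phosphodiesterase, was highest in CAST/EiJ at 729.6 cpm. The cone phosphodiesterase genes Pde6c and Pde6h were lowest in NOD/ShiLtJ at 10.5 cpm and in WSB/EiJ at 9.95 cpm. Gad2, an enzyme of GABA synthesis in amacrine cells, was highest in CAST/EiJ at 19.6 cpm, and Chat, which makes acetylcholine, was highest in PWK/PhJ at 4.74 cpm. Calb1 of horizontal cells was lowest in PWK/PhJ at 14.1 cpm. Apoe of Müller glia and Prox1 of horizontal cells, with 69.4 and 66.8 cpm, did have their lowest means in CAST/EiJ.

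The summed level of the 10 members was 184.5, 184.9 and 188.8 cpm in the CAST/EiJ libraries, and Nefl, the most abundant, made up 91.0 cpm of the strain mean. The lowest sum in any other strain was 226.7 cpm, in A/J. The highest strain was C57BL/6J, at 310.1 ± 19.4 cpm (SD, n = 3). No member was at 0 in any library.

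Genes of tissue next to the retina had uneven sums over the libraries. The 9 lens genes summed to 1715 cpm in 1 library of 129S1/Svlmj, 1931 cpm in 1 of NOD/ShiLtJ and 226.7 cpm in 1 of C57BL/6J, and to between 5.52 and 89.7 cpm in the remaining 21. Cryaa, a lens crystallin, was their most abundant gene. All 9 lens genes were under the q-value limit in the F-test and 0 of 9 by the Benjamini-Hochberg adjusted p-value. Lens genes summed to 20.7, 5.52 and 21.4 cpm in CAST/EiJ.

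The 8 genes of optic nerve myelin and astrocytes, with Mbp, myelin basic protein, as the most abundant, summed to 96.0 cpm in 1 NOD/ShiLtJ library and 53.9 cpm in 1 NZO/HlLtJ library. In CAST/EiJ they summed to 20.9, 18.9 and 21.5 cpm, at the low end of the 24 libraries, and Mog, Mag and Mobp were at 0 in at least 1 library of the series. Genes of the pigment epithelium summed to 11.7 ± 1.30 cpm in CAST/EiJ and 50.5 ± 13.4 cpm in WSB/EiJ (SD, n = 3 each), with Ttr, transthyretin, as the most abundant. In CAST/EiJ 5 of the 6 tested were called lower. Of 8 genes of microglia and blood tested, 6 were called lower in CAST/EiJ, both against 29.1% of all genes, and Hbb-bs, a beta-globin, was the most abundant. Their part in the member values was not tested. With any one library left out, between 7 and 9 members were called lower in CAST/EiJ. That count does not bear on this part, as pigment epithelium sums were 12.9, 10.3 and 11.8 cpm, low in all 3 CAST/EiJ libraries.

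Promoter sequences from RefSeq (GRCm38.p6) were matched for 4 of the 10 members, Pou4f1, Pou4f2, Sncg and Slc17a6, with 2 windows for Slc17a6. Pou4f2 and both windows of Slc17a6 are shown because their strain means had r = 0.83 (exact permutation p = 0.0159, adjusted p = 0.137; rho = 0.60, exact permutation p = 0.132; r = 0.12 without the 2 farthest strains), with CAST/EiJ lowest and PWK/PhJ highest for both. Each is the 250 bases before an annotated start, read in the direction of the gene. The AT-rich run TAATTAAT, or ATTAATTA on the other strand, of the kind that POU and homeodomain proteins can bind, was chosen after the sequences were seen and is in capitals. It was found in 1 of the 5 windows, the second window of Slc17a6, which lies within the gene and outside its exons, and in 0.788% of the 32851 promoter windows. A match is a description of the letters and not evidence of binding.
Pou4f2, chr8:78436648-78436897, minus strand: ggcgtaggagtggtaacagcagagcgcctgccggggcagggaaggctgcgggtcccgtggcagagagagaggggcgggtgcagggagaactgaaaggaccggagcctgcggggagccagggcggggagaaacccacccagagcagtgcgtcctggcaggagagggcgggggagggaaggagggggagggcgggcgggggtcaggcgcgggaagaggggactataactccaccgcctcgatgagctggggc
Slc17a6, first window, chr7:51621580-51621829, plus strand: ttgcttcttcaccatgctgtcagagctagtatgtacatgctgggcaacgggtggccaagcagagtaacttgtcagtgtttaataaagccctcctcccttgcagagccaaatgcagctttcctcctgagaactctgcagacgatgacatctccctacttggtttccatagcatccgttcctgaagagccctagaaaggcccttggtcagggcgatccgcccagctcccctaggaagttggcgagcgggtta
Slc17a6, second window, chr7:51624387-51624636, plus strand: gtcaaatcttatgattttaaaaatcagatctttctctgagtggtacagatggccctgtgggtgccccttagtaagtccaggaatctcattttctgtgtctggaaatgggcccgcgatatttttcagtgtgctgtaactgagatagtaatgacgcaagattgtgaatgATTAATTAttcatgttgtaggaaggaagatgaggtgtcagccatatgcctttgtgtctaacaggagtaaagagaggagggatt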

How the data were processed

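Retinal RNA of 24 libraries, 3 in each of 8 strains, was analysed from the deposited table. After trimming, the authors mapped reads with STAR (GRCm38/mm10) and quantified genes by the E/M method in Partek Flow. The unit of the deposited table is cpm, that is, gene counts scaled by the authors to the library total, plus 0.0001. All strains were aligned to one reference genome, and the effect of sequence differences between strains on the values was not tested. Of the low values (up to 50 reads), 86.3% to 88.7% were whole numbers of reads within 0.02 reads, so no count test was used. A value of 3 reads is worth 0.0384 to 0.0521 cpm. The study's methods treat each library as a biological replicate.

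Values were analysed as log2(cpm + 1) for 16400 genes (mean cpm of 0.5 or more), in limma (version 3.58.1, R 4.3.3; lmFit, eBayes with a trend), two-sided, with each strain set against the mean of the other 7. Storey's q-value was limited to 0.01 over all genes tested. In the F-test over strains this method estimated so few unchanged genes (0.0208) that the limit reached an unadjusted p of 0.466, and Benjamini-Hochberg values are given beside it. In the contrasts of single strains the largest p called was between 0.00461 and 0.0180. The fit was tested on simulated data with 200 of 16400 genes shifted by 0.5 (log2) in 1 strain, and the contrast of that strain called 189 of the 200 with the right sign and 1 other gene. That setting has far more unchanged genes than the data, where their estimated share was 0.278 in the CAST/EiJ contrast. Most member differences in CAST/EiJ were also smaller than 0.5, so these counts give no error rate for the calls reported.

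The genes named are the 10 members, the most abundant and the 2 with the largest F of each other list, and the 5 genes most like the average of the members; a few of them are left out, and others are given by their list only. The members and lists were chosen with earlier results of these data known. The lists cover further ganglion cell genes, rod, cone, bipolar, amacrine and horizontal cells, Müller glia, optic nerve myelin and astrocytes, lens, pigment epithelium, and microglia and blood. Exon lengths and overlaps came from GENCODE, whose spans the deposited table has for all 10 members although the methods name RefSeq, and promoters from RefSeq. The alternatives were a pseudocount of 0.1, no filter, a 5 cpm limit on the mean, median-ratio scaling, Benjamini-Hochberg, each library left out, and CAST/EiJ left out, the last chosen after seeing the data.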

Additional observations from a re-analysis of the deposited data

How the results depend on the processing

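The count of 9 members called lower in CAST/EiJ was 7 to 9 under the alternatives that kept all strains, and the F-test called 7 to 10 members, of which 7 were all that passed the filter at 5 cpm. The 10 came from leaving out either 129S1/Svlmj replicate 2 or C57BL/6J replicate 1, where the q-value limit also took in Pou4f1. Of 2366 differences of single members under alternatives, 2225 kept their side of the threshold and their sign, 79 lost the call, 21 gained it, 41 that were not called changed sign and 0 called ones did. Of all genes, 29.1% were called lower in CAST/EiJ in the main fit, 23.9% by Benjamini-Hochberg and 25.8% under median-ratio scaling. A count below without the share of all genes in the same fit is not read as a result about the members. Causes of the changes below were not tested.

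With a pseudocount of 0.1 the median difference was -0.48 in CAST/EiJ and -0.089 in NZO/HlLtJ, and the median r was 0.599. With a mean of at least 5 cpm, which leaves 7 members, these were -0.43, -0.076 and 0.616, the median difference in C57BL/6J was 0.27, and 1 member was called higher in WSB/EiJ. Without a filter 1 member was called higher in A/J, 0 in WSB/EiJ and 0 in NZO/HlLtJ, and 0 lower in PWK/PhJ. Benjamini-Hochberg gave the same counts of 1, 0, 0 and 0. By that adjustment 22%, 27.5%, 20.8% and 40.5% of all genes were called in these strains, both directions together. Under median-ratio scaling 1 was higher in A/J, 4 higher in WSB/EiJ and 2 lower in NZO/HlLtJ, against 14.1%, 16.8% and 13.9% of all genes. The median difference in NZO/HlLtJ was then -0.084, and the median r was 0.540. Of all genes called, the share called higher was 36.7% in the main fit and 49.3% under this scaling in WSB/EiJ, 62.0% and 51.2% in NOD/ShiLtJ, and 41.1% and 49.3% in CAST/EiJ. With the 2 farthest strains left out the median r was 0.255.

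Without CAST/EiJ, chosen after seeing the data, the median r was 0.179, and the median difference was -0.015 in 129S1/Svlmj and -0.129 in NZO/HlLtJ. The members called higher were then 1 in C57BL/6J, 1 in NOD/ShiLtJ, 0 in A/J, 0 in WSB/EiJ and 0 in NZO/HlLtJ, and those called lower were 4 in A/J, 2 in PWK/PhJ and 3 in NZO/HlLtJ. The shares of all genes in that fit are given above with these counts.

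With each library left out in turn, members called higher ranged from 1 to 3 in NOD/ShiLtJ, 0 to 2 in A/J, 2 to 5 in PWK/PhJ, 0 to 3 in WSB/EiJ and 0 to 1 in NZO/HlLtJ. Members called lower ranged from 1 to 2 in A/J, 0 to 1 in PWK/PhJ and 0 to 1 in NZO/HlLtJ. The shares of all genes in these fits are not given. In the main fit the shares called higher were 14.9%, 15.1%, 26.6%, 12.7% and 12.7% in NOD/ShiLtJ, A/J, PWK/PhJ, WSB/EiJ and NZO/HlLtJ. Those called lower were 12.6%, 22.8% and 13.2% in A/J, PWK/PhJ and NZO/HlLtJ. The median difference ranged from 0.096 to 0.172 in C57BL/6J, -0.076 to 0.003 in A/J and -0.101 to -0.063 in NZO/HlLtJ, and the median r from 0.511 to 0.629. There were 3 libraries per strain, and 57 reads for Pou4f3 in the lowest library. No paired analysis was possible because the labels give no block and the replicate numbers only name the libraries. The methods mention blocked pooling before sequencing, and its blocks are not in the labels.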
